A study of Mus musculus with 6 samples.

Results

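The clustered protocadherins are cadherin-type adhesion proteins encoded by neighbouring alpha, beta and gamma gene clusters on mouse chromosome 18. Members were chosen by name: a gene of the deposited table belongs here if its symbol starts with Pcdha, Pcdhb or Pcdhg. This gave 58 of the 34745 genes in the table, of which 14 lay in the alpha cluster, 22 in the beta cluster and 22 in the gamma cluster. The measurement was bulk RNA-seq of NOR-10 cells, a line of mouse skeletal muscle fibroblasts, and each value is the number of reads assigned to a gene in a library. The control group received PBS, and the D-gal group received 20 mg/mL D-galactose, a sugar that is commonly used to induce cellular senescence, for 3 days, with n = 3 libraries in each group. All libraries came from 1 cell line, and no label says that they came from separate cultures, so the p-values measure the spread between these samples, which may be technical. The comparison asked which genes differ in fibroblasts after exposure to D-gal.

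Clustered protocadherins sit at the cell surface and bind the same isoform on a neighbouring cell. In neurons each cell uses its own combination of isoforms, which gives it an identity that lets its branches tell themselves from those of other cells. Every alpha and gamma isoform joins its own large first exon, with its own promoter, to constant exons shared by the whole cluster, whereas a beta isoform is encoded by a single exon. Promoters are chosen with the help of CTCF and cohesin, which loop an enhancer to a promoter, and DNA methylation keeps the other promoters silent. The C-type isoforms at the end of the alpha and gamma clusters are regulated apart from the others and are used more broadly.

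On GRCm38 the alpha cluster spans 36930184 to 37187661 of chromosome 18, the beta cluster 37264938 to 37524479 and the gamma cluster 37661793 to 37841873. All 58 members had the same start and end in GENCODE release M21, and all lie on the plus strand. The constant exons cover 2860 bases in the alpha cluster and 2116 bases in the gamma cluster, and 18 of the 22 beta members have a single exon in every transcript. The identifier ENSMUSG00000023036 carries the symbol Pcdhga8 in the table but is Pcdhgc4 in that annotation, and it is called Pcdhgc4 here. The symbol Pcdha11 belongs to 2 identifiers, which were kept apart. Because the isoforms of the alpha and of the gamma cluster share constant exons, a read there cannot by itself be given to 1 isoform. How such reads were counted is not given in the sources used here. Of the other genes in the table, 4 cover part of the gamma constant exons on the same strand and had at most 5 counts in any library. Isoform values of the alpha and gamma clusters carry this uncertainty, and sums over each cluster are given beside the isoforms. The beta members share no constant exon, although Pcdhb21 and Pcdhb22 have 455 exonic bases in common. First exons also share sequence with other genes. For each first exon, the share of its 31-base words that occur in another gene was counted. The median of this share was 21.4% in the alpha, 11.8% in the beta and 5.94% in the gamma cluster. Words in exons of other genes that cover the same bases are included, so the share does not measure likeness between isoforms alone.

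Library totals ranged from 13759108 to 20830349 counts, at which 3 counts correspond to 0.144 to 0.218 CPM (counts scaled to a common library total). Markers of fibroblasts were detected, with a summed level of 13570 to 13870 CPM in control and 7401 to 7722 CPM in D-gal. In the test described further on, 7 of 9 tested markers fell and 1 rose at an adjusted p of 0.05. Of all genes tested, 17.8% fell and 16.9% rose. Lum was at or near 0. Summed neuron markers reached at most 31.8 CPM, with Rbfox3 at 0, summed glial markers at most 8.38, with Olig1 and Foxd3 at 0, and summed endothelial markers at most 9.54, with Cldn5 at 0. Summed myogenic markers reached at most 7.82 CPM, with Pax7, Myod1 and Myf5 at 0. Summed epithelial markers lay at 34.8 to 37.0 in control and 21.5 to 24.0 in D-gal libraries, with Epcam, Cldn4 and Esrp1 at 0, and summed adipocyte markers at 144.5 to 152.5 and 106.4 to 111.5, with Adipoq, Cidec, Lep and Cfd at 0. Summed leukocyte markers lay at 26.2 to 80.6 in control and 42.8 to 48.3 in D-gal libraries, highest in control replicate 1, with Cd3e at 0. In such bulk libraries, fewer cells of a type and less RNA per cell cannot be told apart.

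Reads of the clustered protocadherins came mainly from the gamma and beta clusters, and few came from the alpha cluster. Together the members took 556.5, 715.1 and 740.7 CPM in control and 579.8, 449.1 and 571.5 in D-gal, ranges that overlap. Of the 58 members, 52 had at least 1 count in some library, and Pcdha6, Pcdha7, Pcdha8, Pcdha12, Pcdhac1 and Pcdhb1 were at 0 in all 6 libraries. A filter on low counts was passed by 35 members, of which 20 were beta, 8 gamma-A, 4 gamma-B and 3 C-type isoforms, and by none of the 14 alpha cluster members. The heat map of all members by library shows this division.

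**Figure D1:**
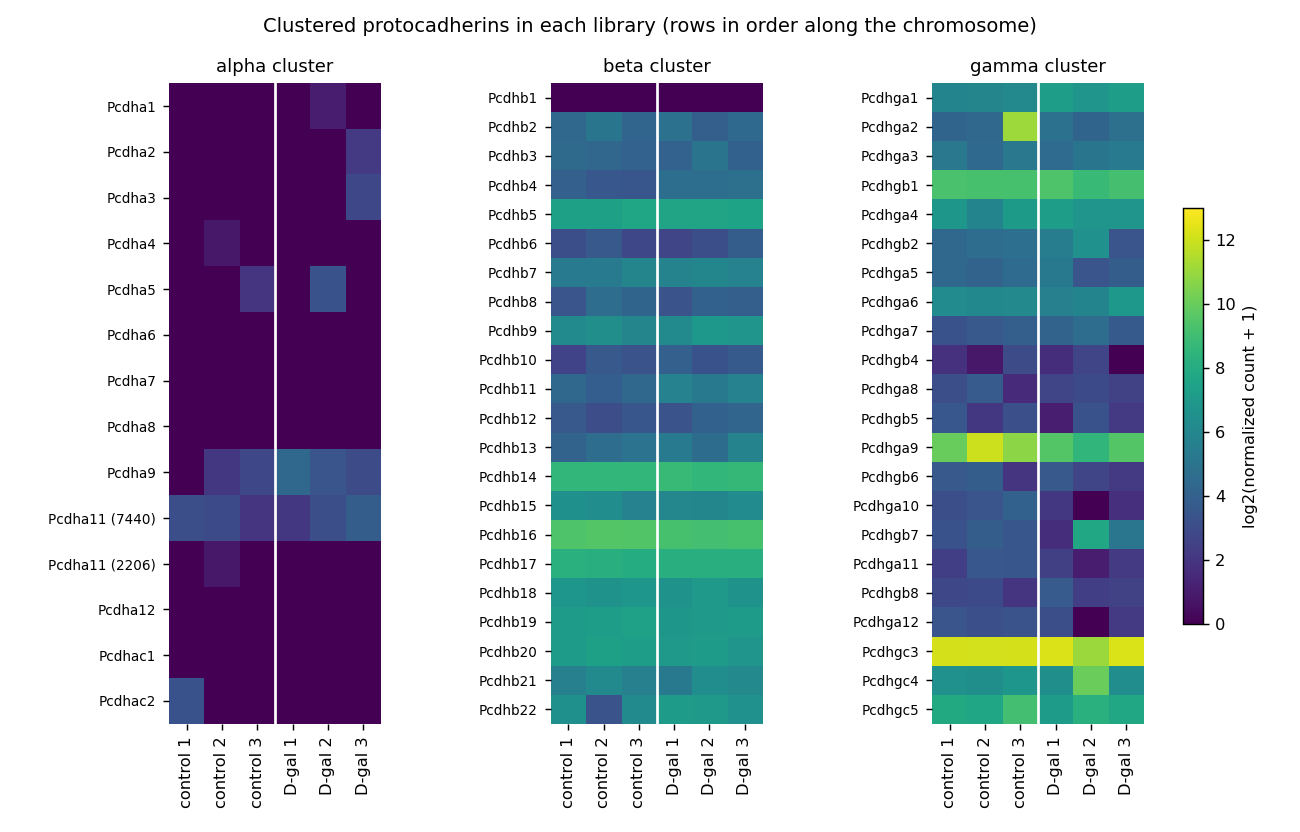
Each row is a clustered protocadherin in order along the chromosome and each column a library, control on the left and D-gal on the right of the white line. Colour gives log2(normalized count + 1). The alpha cluster is near 0, Pcdhb16, Pcdhgb1, Pcdhga9 and Pcdhgc3 are bright throughout, and Pcdhga2 (control 3), Pcdhgc4 (D-gal 2) and Pcdhgb7 (D-gal 2) stand out in single libraries.

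Levels can be compared between genes as normalized counts per kilobase of merged exons. On this scale the C-type isoform Pcdhgc3 was highest, at a mean of 773 over the 6 libraries. It was followed by Pcdhga9 at 259, Pcdhb16 at 124 and Pcdhgb1 at 101 normalized counts per kilobase. In control alone Pcdhga9 was at 408 and Pcdhb16 at 136, and in D-gal they were close, at 110.1 and 111.1. Pcdhga2 came next at 81.9, but this mean rests on 1 control library, and its D-gal level was 5.20 against 159 in control. Pcdhb17, Pcdhb5 and Pcdhb14 followed at 62.1, 51.8 and 46.0 normalized counts per kilobase. The order of the gamma members on this scale, among themselves and against the beta members, depends on how reads in the constant exons were assigned and on the length used. With the longer lengths behind the deposited FPKM, Pcdhgc3 was at 446, Pcdhga9 at 186.5 and Pcdhgb1 at 69.7 per kilobase, the last below Pcdhga2. Both lengths were equal to within 2 bases for 32 of the 52 members with reads. For the 6 members at 0 in every library no length could be derived from FPKM.

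The summed level of the beta cluster was close in all libraries, while 3 of its isoforms passed the test described further on. The sum was 2430, 2428 and 2438 normalized counts in control and 2423, 2455 and 2456 in D-gal. The groups overlapped, and the means of 2432 ± 5.45 and 2444 ± 18.7 (SD, n = 3 each) gave a ratio of 1.005. No test was run on sums over members.

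The gamma sum varied far more between libraries of a group. It was 6993, 9716 and 10170 normalized counts in control and 7215, 4951 and 6989 in D-gal. Control replicates 2 and 3 were highest, D-gal replicate 2 was lowest, and control replicate 1 lay among the D-gal libraries. The means were 8961 ± 1719 and 6385 ± 1247 (SD, n = 3 each), a ratio of 0.713. Without Pcdhga9 and Pcdhga2, which were picked after their values were seen, the gamma sum was 5938 ± 335 in control and 5746 ± 1038 in D-gal, a ratio of 0.968.

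Within the gamma cluster, the sum of the gamma-A isoforms was 1374, 4396 and 4294 normalized counts in control and 1220, 748 and 1215 in D-gal. All D-gal libraries lay below the control libraries, but control replicate 1 was only slightly above the highest of them. The lower sum in D-gal came mainly from Pcdhga9 and Pcdhga2. Of the 8 tested gamma-A isoforms, these 2 had negative log2 fold changes and the other 6 had positive ones. The gamma-B sum overlapped, at 662.5 ± 17.6 and 716.4 ± 69.6 (SD, n = 3 each). The C-type sum, which includes Pcdhac1 and Pcdhac2, also overlapped, at 4946 ± 272 and 4608 ± 1011, with D-gal replicate 2 lowest at 3442.

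The alpha sum was small. It was 19, 14 and 12 raw counts in control and 21, 25 and 25 in D-gal, whose totals were smaller. After normalization the values were 16.6, 11.4 and 12.1 in control and 23.6, 27.3 and 30.1 in D-gal, so that the groups did not overlap. The means were 13.4 ± 2.79 and 27.0 ± 3.29 (SD, n = 3 each), a ratio of 2.02, which came mainly from Pcdha9.

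**Figure D2:**
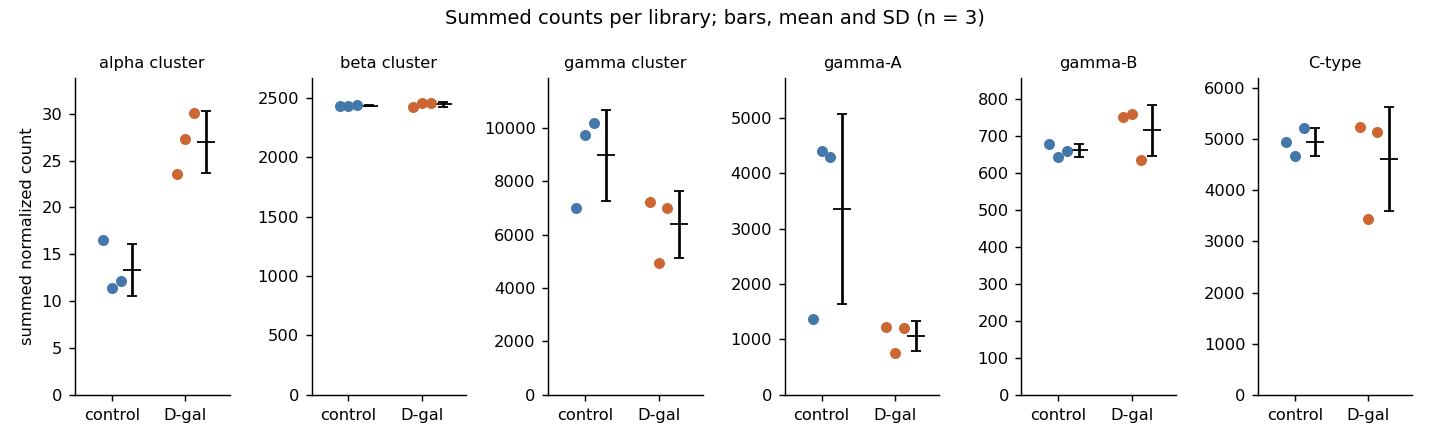
Summed normalized counts of each cluster and of the gamma-A, gamma-B and C-type isoforms, with 1 point per library and the mean and SD (n = 3) beside them. The beta sums lie between 2423 and 2456 in all libraries, whereas the gamma sums range from 4951 to 10170.

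Single isoforms were then compared between the groups. With the quasi-likelihood test of edgeR and Benjamini-Hochberg adjustment over the 13407 genes tested, 5 of the 35 tested members (14.3%) passed an adjusted p of 0.05, whereas 34.8% of all genes tested did. Pcdhga1, Pcdhb11 and Pcdhb4 rose, where 16.9% of all genes rose, and Pcdhga9 and Pcdhb16 fell, where 17.8% of all genes fell. At an unadjusted p under 0.05 there were 7 of 35 members, against 44.6% of all genes tested. All these calls except that of Pcdhb16 also passed a log2 fold change of 1 in size, as did 4.21% of all genes tested (2.37% higher and 1.83% lower). The fold changes of the 35 members were positive in 22 and negative in 13, with a median of 0.09 on the log2 scale, and the median over all genes tested was 0.0036. Their median size was 0.30 on the log2 scale, against 0.19 for all genes tested. The libraries of the groups did not overlap for 8 of the 35 members (22.9%), compared with 49.1% of all genes tested. The exact two-sided permutation test over 3 against 3 libraries cannot go below p = 0.1, which is the value it gave for each of those 8.

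**Figure D3:**
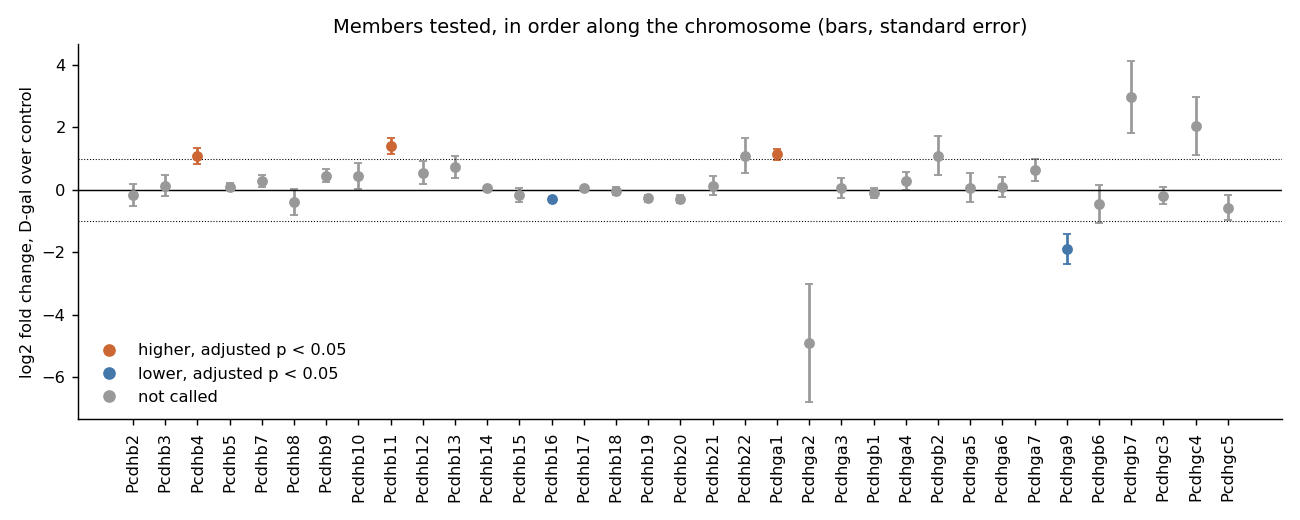
Log2 fold change of D-gal over control for the 35 tested members in order along the chromosome, with the standard error; dotted lines mark a log2 fold change of 1 in size. Pcdhb4, Pcdhb11 and Pcdhga1 lie above 1 with short error bars, Pcdhb16 and Pcdhga9 are the calls below 0, and Pcdhga2, Pcdhgb7 and Pcdhgc4 have the widest bars.

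Pcdhb16 (chromosome 18, 37477814 to 37483038, a single exon) took the most reads of the beta isoforms. It had 692.8, 724.6 and 712.0 normalized counts in control and 589.2, 551.5 and 601.3 in D-gal. The replicates lay close together and the groups did not overlap. Pcdhb16 fell by 0.29 on the log2 scale (SE 0.06, adjusted p = 0.00596, edgeR quasi-likelihood test). Its share of all beta counts was 28.5%, 29.9% and 29.2% in control and 24.3%, 22.5% and 24.5% in D-gal. The mean share differed by -5.43 percentage points between D-gal and control, and no library of one group reached the range of the other.

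Pcdhb11 (37421418 to 37425836) had 23, 17 and 20 raw counts in control and 47, 34 and 44 in D-gal. Every D-gal library was above every control library. Pcdhb11 rose by 1.40 on the log2 scale (SE 0.26, adjusted p = 0.00397), from 18.04 ± 3.61 to 47.6 ± 9.10 normalized counts (SD, n = 3 each). Its share of the beta counts was 0.742% in control and 1.95% in D-gal. Pcdhb4 (37307455 to 37311172) was lower still, with 17, 13 and 10 raw counts in control and 22, 23 and 22 in D-gal. The groups did not overlap, and Pcdhb4 rose by 1.09 on the log2 scale (SE 0.26, adjusted p = 0.0145). The call was lost without control replicate 2 (log2 fold change 1.01, adjusted p = 0.0566), without control replicate 3 (0.997, adjusted p = 0.0518) and with DESeq2 (1.10, adjusted p = 0.0950).

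The other abundant beta isoforms did not pass the test. Pcdhb14 had 393.9, 386.8 and 395.9 normalized counts in control and 436.6, 388.7 and 396.4 in D-gal, with a log2 fold change of 0.05 (adjusted p = 0.595). Pcdhb17 had 284.1 ± 21.8 in control and 294.7 ± 3.51 in D-gal, and Pcdhb5 had 176.7 ± 19.3 and 189.5 ± 3.49 (SD, n = 3 each). All 3 overlapped between the groups. Pcdhb16, Pcdhb14 and Pcdhb17 took the most reads of the beta cluster in all 6 libraries, in this order, and together made 50.4% to 57.6% of its counts. By the mean per kilobase, Pcdhb17 and Pcdhb5 were above Pcdhb14. Among the beta isoforms that did not pass the test, Pcdhb19, Pcdhb20 and Pcdhb22 also had groups that did not overlap. Their log2 fold changes were -0.27, -0.30 and 1.10, with adjusted p of 0.125, 0.118 and 0.173. Pcdhb22 had 90.6, 8.98 and 73.7 normalized counts in control and 143.6, 126.7 and 95.2 in D-gal, and its log2 fold change was 0.57 without control replicate 2, where it was lowest. Pcdhb21 and Pcdhb22 overlap by 455 exonic bases. In all, 3 of the 20 tested beta isoforms were called, and the 20 log2 fold changes ranged from -0.39 to 1.40 with a median of 0.12.

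Pcdhga1 (37661793 to 37841873 with the constant exons), the first isoform of the gamma cluster, had the smallest adjusted p of all members. It had 57.5, 58.8 and 69.7 normalized counts in control and 148.1, 108.1 and 155.4 in D-gal. All D-gal libraries were above all control libraries. Pcdhga1 rose by 1.15 on the log2 scale (SE 0.17, adjusted p = 0.00164), from 62.0 ± 6.70 to 137.2 ± 25.5 (SD, n = 3 each). Its share of the gamma counts was 0.822%, 0.605% and 0.685% in control and 2.05%, 2.18% and 2.22% in D-gal. An exon of the antisense gene Gm37118, which was at 0 in every library, overlaps Pcdhga1. Whether counting used the strand is not given in the sources used here.

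Pcdhga9 (37736936 to 37841870) had the highest mean of the gamma-A isoforms and varied within the control group, where Pcdhga2 was above it in replicate 3. It had 1013, 4105 and 1720 normalized counts in control and 740.7, 381.1 and 723.0 in D-gal. Control replicate 2 stood far above the other control libraries, and D-gal replicate 2 was the lowest of all. Pcdhga9 fell by 1.90 on the log2 scale (SE 0.49, adjusted p = 0.0199). The log2 fold change was -1.15 without control replicate 2 (adjusted p = 0.0329), and -1.64 without D-gal replicate 2, when it no longer passed (adjusted p = 0.0670). Pcdhga9 made 14.5%, 42.3% and 16.9% of the gamma counts in control and 10.3%, 7.70% and 10.3% in D-gal.

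Pcdhga2 had the fold change of greatest size among the members without passing the test. It had 20, 24 and 2172 raw counts in control and 26, 16 and 22 in D-gal. Control replicate 3 alone was high, and the other 5 libraries lay close together. The log2 fold change was -4.91 (SE 1.90, adjusted p = 0.0803), and it was 0.39 (adjusted p = 0.420) without control replicate 3. Without control replicate 1 or 2, by contrast, it passed, with an adjusted p of 0.0397 and 0.0408. Pcdhga4 had 116.8, 57.9 and 133.3 normalized counts in control and 153.7, 110.3 and 109.7 in D-gal, with overlapping groups and a log2 fold change of 0.29 (adjusted p = 0.489). Pcdhga10, which did not pass the filter and was chosen after its values were seen, had 7.84, 9.79 and 15.2 normalized counts in control and 3.37, 0 and 2.41 in D-gal.

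Among the gamma-B isoforms none of the 4 tested passed. Pcdhgb1 was the most abundant, with 622.2, 584.2 and 603.9 normalized counts in control and 680.1, 425.9 and 580.8 in D-gal. Its log2 fold change was -0.10 (adjusted p = 0.633), and D-gal replicate 2 was its lowest library. Pcdhgb1 and Pcdhga4 share exonic bases with other members beyond the constant exons, so that 54.6% and 66.8% of their exonic bases are shared. Pcdhgb7 had 10, 16 and 10 raw counts in control and 2, 198 and 28 in D-gal. Its D-gal libraries lay on both sides of the control libraries, and the log2 fold change was 2.98 (SE 1.16, adjusted p = 0.0817), or 0.72 without D-gal replicate 2. It passed without D-gal replicate 1 (adjusted p = 0.0133). Pcdhgb2 had 22, 30 and 26 raw counts in control and 38, 87 and 8 in D-gal, with a log2 fold change of 1.09 (adjusted p = 0.217), of 0.19 without D-gal replicate 2 and of 1.56 without D-gal replicate 3, when it passed (adjusted p = 0.0202). Pcdhgb6 had few reads and a log2 fold change of -0.46 (adjusted p = 0.603).

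The C-type isoform Pcdhgc3 (37806364 to 37841873) had 4606, 4390 and 4559 normalized counts in control and 5010, 2096 and 4846 in D-gal. The control libraries were nearly level, D-gal replicate 2 was lowest, and the other D-gal libraries were above the controls. The log2 fold change was -0.18 (SE 0.27, adjusted p = 0.651). Without D-gal replicate 2 the direction turned, to 0.13 (adjusted p = 0.0464). Pcdhgc3 was first of the gamma cluster in all 6 libraries, with 65.9%, 45.2% and 44.8% of its counts in control and 69.4%, 42.3% and 69.3% in D-gal.

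Pcdhgc4 showed the opposite pattern to Pcdhgc3 in D-gal replicate 2. It had 95.9, 88.1 and 113.1 normalized counts in control and 88.7, 1046 and 81.9 in D-gal. It was level in 5 libraries and high in D-gal replicate 2, where it made 21.1% of the gamma counts. The log2 fold change was 2.05 (SE 0.92, adjusted p = 0.124), and it was -0.21 without that library. Pcdhgc5 had 237.0, 195.8 and 546.3 normalized counts in control and 144.8, 300.3 and 209.7 in D-gal. The groups overlapped, and its log2 fold change was -0.57 (adjusted p = 0.322), or 0.01 without control replicate 3, where it was highest.

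**Figure D4:**
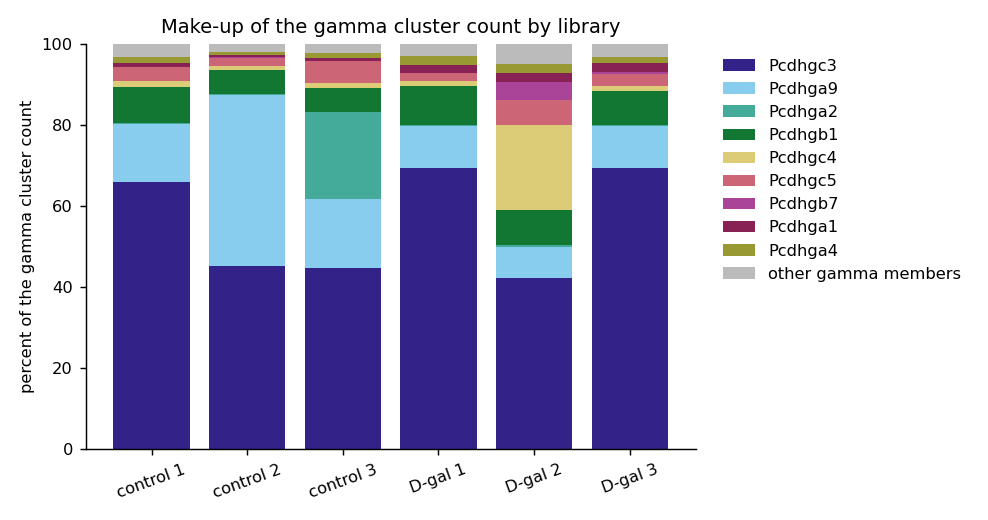
Each bar is a library and its segments give the percent of all gamma cluster counts held by each isoform. Control 1, D-gal 1 and D-gal 3 look alike, with Pcdhgc3 at 65.9% to 69.4%, whereas Pcdhga9 holds 42.3% in control 2, Pcdhga2 21.6% in control 3 and Pcdhgc4 21.1% in D-gal 2.

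Many members spread more widely between the libraries of a group than most genes did. For genes with a mean of at least 50 normalized counts, the highest library was divided by the lowest within each group. A range of more than 2-fold in either group was found in 9 of 21 such members (42.9%), compared with 2.53% of the 11344 genes of the whole table with such counts. Above this limit the members and the other genes were not matched by level. Low counts vary more, and Pcdhb21 and Pcdhga6 had means of only 59.6 and 73 normalized counts. Pcdhga2 reached the mean of 50 through control replicate 3 alone. With a median over the libraries of at least 50 in its place, a choice made after seeing the data, Pcdhga2 was left out and 8 of 20 members (40%) exceeded 2-fold, against 2.52% of all such genes. Within the control group alone 5 members exceeded 2-fold, as did 1.56% of all such genes, and within the D-gal group 5 members did, as did 1.51%. Of the 9, 7 were gamma members (of 9 measured) and 2 were beta members (of 12 measured), Pcdhb21 and Pcdhb22. The range reached 126-fold within the control group (Pcdhga2) and 12.8-fold within the D-gal group (Pcdhgc4). In the whole table the median range was 1.10-fold in the control group and 1.11-fold in the D-gal group, and the 95th percentiles were 1.51 and 1.55. Different members were extreme in different libraries: Pcdhga9 was highest in control replicate 2, Pcdhga2 and Pcdhgc5 in control replicate 3, and Pcdhgc4 and Pcdhgb7 in D-gal replicate 2. What part the counting of shared exons had in this spread was not tested.

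**Figure D5:**
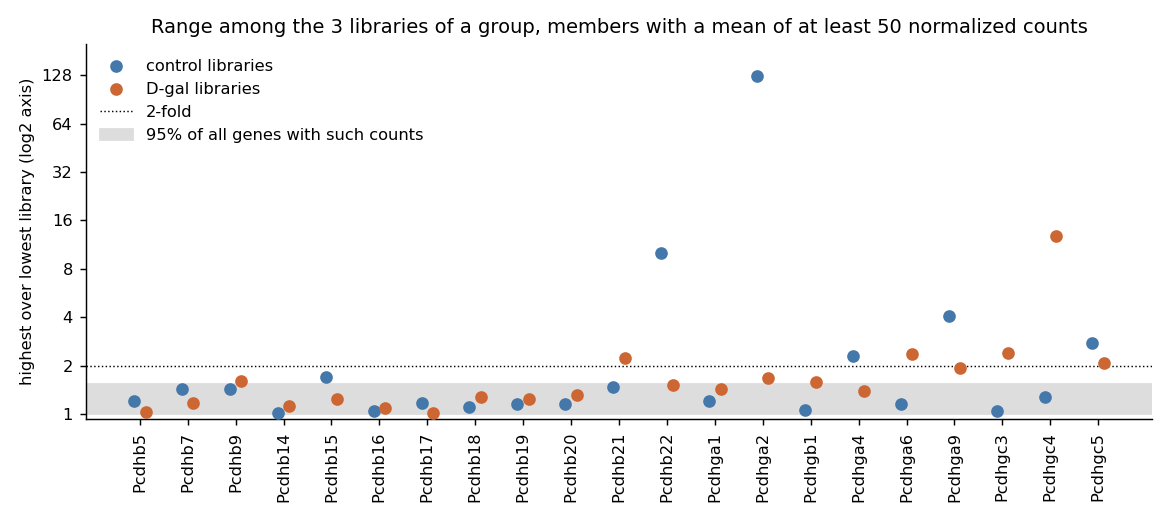
For each member with a mean of at least 50 normalized counts, the highest of the 3 libraries of a group is divided by the lowest, on a log2 axis, in blue for control and orange for D-gal. The grey band holds 95% of all genes with such counts in the group with the wider spread (up to 1.55-fold). Most beta members lie in it, whereas Pcdhga2 (126-fold), Pcdhgc4 (12.8-fold), Pcdhb22 (10.1-fold) and Pcdhga9 (4.05-fold) lie far above.

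In the alpha cluster no member passed the filter, so none entered the test. Pcdha9 had 0, 4 and 6 raw counts in control and 18, 9 and 6 in D-gal. Pcdha11 (ENSMUSG00000007440) had 9, 8 and 3 in control and 3, 7 and 11 in D-gal. Both were found in at least 5 of 6 libraries, although at levels near the limit of 3 counts in some of them. Pcdha5, Pcdha3 and Pcdhac2 had reads in at most 2 libraries each, with no more than 10 raw counts in any of them.

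Genes known to act on these clusters or with their proteins were read from lists of names, against the same background of 34.8% of all genes called. Of 28 factors of chromatin and looping, 1 rose and 5 fell (21.4% called), with a median log2 fold change of -0.04. The cohesin subunits Rad21 and Smc1a fell by 0.40 (SE 0.03, adjusted p = 6.49e-05) and by 0.28 (SE 0.04, adjusted p = 0.00182) on the log2 scale, and Stag2, a further subunit, fell by 0.14 (adjusted p = 0.01001, edgeR). The subunits Smc3 and Stag1 did not pass, with log2 fold changes of 0.0014 (adjusted p = 0.984) and 0.09 (adjusted p = 0.297). Rad21 had 9090, 9634 and 7916 raw counts in control, whose libraries were larger, and 5516, 5361 and 5005 in D-gal. The DNA methyltransferase Dnmt1 fell by 0.30 and Tet3, which oxidises methylated cytosine, fell by 0.37 on the log2 scale. Rest, a repressor of neuronal genes, rose by 0.16 (adjusted p = 0.0175). Ctcf, the factor that marks the loop ends, had overlapping groups and a log2 fold change of 0.03 (adjusted p = 0.749).

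Of 27 intracellular partners and processing enzymes, 7 rose and 7 fell (51.9% called), with a median log2 fold change of 0.01. The kinases Ptk2 and Ptk2b, which bind the constant intracellular parts of alpha and of gamma isoforms, rose by 0.45 (SE 0.04) and 0.54 (SE 0.05) on the log2 scale. The kinase Prkca fell by 0.54 (SE 0.05) and Wasf2, of the WAVE complex that drives actin branching, fell by 0.29 (SE 0.04). From the same list Marcks, an abundant actin-binding substrate of protein kinase C, fell by 0.17 (adjusted p = 0.0121). Rac1, a small GTPase, had 9411, 9935 and 8248 raw counts in control and 6405, 2491 and 6006 in D-gal, with a log2 fold change of -0.52 (adjusted p = 0.232), and was lowest in D-gal replicate 2, without which it passed at -0.19 (adjusted p = 0.00528).

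Of 19 tested classical and other cadherins and catenins, 2 rose and 6 fell (42.1% called), with a median log2 fold change of -0.11. The epithelial cadherin Cdh1 fell by 1.79 on the log2 scale (SE 0.18, adjusted p = 1.97e-04), from 141, 142 and 140 raw counts in control to 37, 26 and 33 in D-gal. The giant cadherins Fat1 and Fat4 rose by 0.25 (SE 0.03) and 0.38 (SE 0.05), whereas Fat2, with at most 24 raw counts in a library, fell by 1.51 (SE 0.32) and Fat3 was at 0. The calsyntenin Clstn1 fell by 0.35 (SE 0.04). Ctnnb1, which links classical cadherins to the actin skeleton, did not pass, with a log2 fold change of -0.08 (adjusted p = 0.750), and was low in control replicate 2, without which it passed at -0.29 (adjusted p = 0.00213).

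Of the 6 non-clustered protocadherins tested, out of 12 on the list, 1 fell and none rose (16.7% called), with a median log2 fold change of -0.24. Pcdh19, a cell adhesion protein of the delta group, had 1261, 1488 and 1311 raw counts in control and 676, 668 and 498 in D-gal. It fell by 0.80 on the log2 scale (SE 0.10, adjusted p = 6.55e-04). Pcdh20 had 55, 83 and 68 raw counts in control and 11, 24 and 39 in D-gal. Its groups did not overlap, and its log2 fold change of -1.12 (SE 0.39) missed the threshold (adjusted p = 0.0565), which it passed without D-gal replicate 3 (-1.66, adjusted p = 0.0131) and with DESeq2 (adjusted p = 0.0391). Pcdh18, Pcdh9 and Pcdh7 had log2 fold changes of -0.29, -0.20 and -0.17 with overlapping groups, and Pcdh7 ranged from 2431 to 5180 raw counts among the control libraries. Without control replicate 1, Pcdh18 passed at -0.43 (adjusted p = 0.0145).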

How the data were processed

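The deposited table holds a read count per gene and library, given by the authors without normalization, and FPKM values computed by the authors. The study's methods name a library kit for small RNA, whereas its abstract describes mRNA sequencing. The submitters' processing notes name HISAT2 2.0.4. The counting tool, its strand setting and the annotation are not given in the sources used here. The control and D-gal libraries were grouped by their labels, and the dose and duration come from the study's methods. The table had 0 unused sample columns.

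Counts were normalized by TMM, filtered with filterByExpr and compared with the quasi-likelihood test of edgeR 4.0.16 (R 4.3.3), 3 libraries against 3 with no covariate, with Benjamini-Hochberg adjustment over 13407 genes. A normalized count is the count over the library size after TMM scaling, times the mean of those sizes. The standard error was taken as the log2 fold change over the root of the F statistic. Alternatives were DESeq2 1.42.0, limma 3.58.1 on log2(FPKM + 1), other size factors and filters, thinned counts, a replicate block and each library left out. Scripts were tested on simulated data. Replicates differed by more than sampling noise in a chi-square test, so each was counted as 1 library. Cluster sums and isoform shares were described without a test. Exon structure came from GENCODE M21 (GRCm38). No sequences are printed.

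Members were named if called, or if among the 4 most abundant of the alpha, beta, gamma-A, gamma-B or C-type isoforms, and per list the 4 genes of smallest p and the 2 most abundant. Other genes named (Pcdhb19, Pcdhb20, Pcdhb21, Pcdhb22, Pcdhga10, Smc3, Stag1, Stag2, Fat2, Fat3, Rest, Ctcf and neighbours of the clusters) were chosen after their values were seen. The members and lists were chosen with earlier results of these data known.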

Additional observations from a re-analysis of the deposited data

How the results depend on the processing

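Of the counts of calls and sums, 170 values under alternatives stayed within 1.5 times the reported count or within the spread between replicates and 22 moved. Leaving out 1 library gave 2 to 5 members that rose and 1 to 3 that fell. Without a filter on low counts 4 members fell and 7 passed both thresholds, at an adjusted p of 0.01 they were 1 and 2, and with limma on log2(FPKM + 1) 1 passed both. Of the non-clustered protocadherins, 4 were called by DESeq2 and 3 without a filter, and 1 to 3 with 1 library left out. The log2 fold change of Pcdhgc3 was -0.38 to 0.13 with 1 library left out, and it reversed without D-gal replicate 2. The cause of these changes was not tested. Without its largest member, the log2 ratio of the sums was 0.51 for alpha, 0.11 for beta, -0.89 for gamma, 1.38 for gamma-B and 0.54 for C-type. These gamma-B and C-type values rest largely on D-gal replicate 2, where Pcdhgb7 had 216.2 and Pcdhgc4 1046 normalized counts. The log2 ratio of the sums was 0.042 for beta by library totals and 0.046 by FPKM, and 0.26 for gamma-B by FPKM. For gamma it was -0.048 without Pcdhga9 and Pcdhga2, an alternative chosen after seeing the data.

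Libraries with the same replicate number did not deviate together (correlations of -0.013, -0.004 and 0.028), so the numbers were not taken as pairs. With the replicate block, 4 members were called, of which 1 fell, since Pcdhga9 no longer passed (log2 fold change -1.67, adjusted p = 0.0626), as were 3 non-clustered protocadherins and 3982 of all genes in place of 4661. Depth limits the alpha isoforms, whose counts were at most 18 in a library, and no interval is given for counts this low.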

Other observations

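The region from the start of the alpha cluster to the end of the gamma cluster holds 24 other genes of the table, of which 15 were at 0 in every library and 4 were tested. BC037039 (37805718 to 37807922 of chromosome 18, minus strand), an antisense gene at the first exon of Pcdhgc3, had 90, 62 and 42 raw counts in control and 14, 17 and 3 in D-gal. The groups did not overlap, and it fell by 2.15 on the log2 scale (SE 0.44, adjusted p = 0.00711, edgeR quasi-likelihood test). Without knowledge of the strand setting, reads where it overlaps Pcdhgc3 cannot be told apart.

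The long non-coding RNA 3222401L13Rik (37655451 to 37661742, plus strand) ends 50 bases before Pcdhga1 begins. It had 25, 17 and 16 raw counts in control and 27, 29 and 28 in D-gal, and rose by 0.88 on the log2 scale (SE 0.25, adjusted p = 0.0277), the direction of Pcdhga1. Taf7, a subunit of the general transcription factor TFIID that lies between the beta and gamma clusters, had 144.5 ± 4.55 normalized counts in control and 138.4 ± 14.5 in D-gal (SD, n = 3 each), with overlapping groups and a log2 fold change of -0.06. The pseudogene Gm8242 had a log2 fold change of -0.25 (adjusted p = 0.422).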
